A study of Caenorhabditis elegans with 31 samples.

Results

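The genes described here are the antimicrobial effector families of *Caenorhabditis elegans*: all genes whose name begins with lys-, ilys-, spp-, abf-, cnc-, fip- or fipr- followed by a digit. This rule uses names only and finds 92 of the 46904 features, made up of 10 lys, 6 ilys, 23 spp, 6 abf, 11 cnc, 7 fip and 29 fipr genes. All 92 carry the same name in the WBcel235 annotation (Ensembl release 115).

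The lys genes encode lysozymes related to those of protists and the ilys genes invertebrate-type lysozymes, enzymes that cut the peptidoglycan of bacterial walls. The spp genes encode saposin-like proteins, some of which, the caenopores, permeabilise bacterial membranes, and the abf genes encode antibacterial factors with a defensin-like fold. The cnc (caenacin), fip (fungus-induced protein) and fipr (fip-related) genes encode short secreted peptides, and several cnc genes are known as fungal or wound response genes of the epidermis. The worm has no dedicated blood cells for defence, and these secreted products of the gut, pharynx and epidermis are a main part of its innate immunity. Several lys and spp genes are classical targets of the insulin-pathway factor DAF-16, of TGF-beta signalling through DBL-1 or of the intestinal GATA factor ELT-2.

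Nuclei of whole adult worms of strain JK560, which carries the fog-1(q253) mutation in every group and so has a developed germline but no fertilized embryos, were sequenced in 31 libraries. The groups are 0.05% ethanol F1 (2 libraries of batch 2 and 3 of batch 5), 0.5% ethanol F1 (3 of batch 5), 0.05% ethanol F3 (2 of batch 2 and 3 of batch 4), 0.5% ethanol F3 (3 of batch 4), water F1 (2 of batch 2 and 3 of batch 5), water F3 (2 of batch 2 and 3 of batch 4), and untreated P0 worms, unsorted (1 of batch 1 and 3 of batch 3) or sorted (1 of batch 1). Worms were moved to 25 °C as L1 larvae and collected as day 2 adults, with 48 hours at 25 °C in one protocol and 62 hours in another. The water groups are the control for ethanol, and the sample labels do not say in which generation worms met ethanol or for how long. The comparisons ask whether the RNA of these genes differed with ethanol, with its dose or between the F1 and F3 generations. Nothing in the labels says that replicates came from separate cultures, so p-values measure the spread between these libraries, which may be technical.

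The 31 libraries held 85180 nuclei and between 1218248 and 25500166 UMIs each. The 3 libraries of batch 5 numbered replicate 2 stood apart, with 1218248 to 1439256 UMIs and 10.9% to 14.7% of them on ribosomal RNA genes. Libraries of the same batch shared up to 233 cell barcodes (14.6% of the smaller library, median 27.5 per pair), against at most 10 for libraries of different batches, and 4.49% of nuclei carried such a shared barcode. Results are also given without those nuclei. In whole-worm sums fewer nuclei of a type and less RNA per nucleus cannot be told apart.

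Of the 92 genes, 90 had at least 1 UMI (fipr-12 and fipr-25 had none), 53 averaged 10 CPM (UMI counts scaled to a common library total) or more over the libraries and 29 averaged under 1 CPM. The lysozyme gene ilys-5 was the most abundant, at 1822 ± 291 CPM (SD, n = 31), and it also varied least among the 53, with a coefficient of variation of 0.16. It was followed by lys-1 (759 CPM), spp-14 (673 CPM), the caenopore gene spp-5 (644 CPM), lys-2 (574 CPM) and lys-7 (499 CPM), a lysozyme known from resistance to bacterial infection. The short-peptide families were lower, led by fipr-21 (319 CPM), fipr-2 (291 CPM), fip-2 (120 CPM), cnc-8 (99.0 CPM), abf-2 (89.6 CPM) and abf-6 (60.5 CPM). At the other end of variation stood fipr-7, fipr-4, fipr-6 and fipr-8, with coefficients of variation of 2.54, 2.23, 1.92 and 1.90. CPM of UMIs counts molecules, not length-scaled signal, and 25 of the 92 genes overlap another annotated gene, 24 of them on the other strand, so counts of such genes, among them lys-8, spp-10, spp-16, abf-2, fip-2, fipr-1 and fipr-2, are uncertain, as are those of near-identical fipr copies.

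Where in the worm the genes were expressed was read from clusters of nuclei whose 2000 clustering genes held 0 of the 92, of which 20 of 41 could be named from marker lists and 21, with 52.0% of nuclei, could not. A gene's leading unit is the named class or unnamed cluster with the highest mean log2 ratio of its CPM to that of the whole library, over at least 10 libraries. It was set for the 67 genes with at least 100 UMIs, and 57 of them kept it after each nucleus was thinned to 400 UMIs. This is a description with no test.

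Lysozyme and most saposin-like genes led in intestine-like nuclei: 9 of 9 lys, 3 of 4 ilys and 12 of 18 spp genes. In those nuclei ilys-5 stood at 5141 ± 911 CPM, lys-7 at 2428 ± 1740, lys-1 at 2327 ± 885 and spp-14 at 2128 ± 1296 (SD, n = 31 libraries each). A UMI of ilys-5 was seen in 87.7% of intestine-like nuclei and in 56.7% of germline-like nuclei, with median depths of 1347 and 963 UMIs. The germline-like sums held 1284 ± 406 CPM of ilys-5 and 496 ± 248 CPM of lys-1 (n = 31). These levels may hold background from free RNA, whose part was not tested. The mean log2 ratio of intestine-like to whole-library level was 1.49 for ilys-5, 1.64 for lys-1 and 2.20 for lys-7.

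The 4 intestine-like clusters differed among themselves. Cluster 17 held 5445 CPM of lys-7, 1927 CPM of spp-2 and 3131 CPM of spp-14, against 159 CPM of lys-7, 164 CPM of spp-2 and 1552 CPM of spp-14 in cluster 13. The order was turned for lys-4, a further lysozyme gene, with 252 CPM in cluster 17 and 681 CPM in cluster 13. Cluster 35, present in 19 libraries, had 85.1 CPM of ilys-3, an invertebrate-type lysozyme gene, and cluster 13 had 19.4 CPM. For ilys-5 the same pair of clusters lay close, at 5747 CPM in cluster 17 and 4984 CPM in cluster 13.

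The short peptides led elsewhere. In pharyngeal muscle-like nuclei abf-6 averaged 919 ± 511 CPM and fipr-2 3063 ± 1975 CPM (n = 31), against 7.4 ± 5.3 and 32.7 ± 30.6 CPM in germline-like nuclei. Cluster 9, an unnamed cluster led by C49G7.3 and scl-5 in which both pharyngeal gland and pharyngeal muscle markers were raised, led for fip-2 (1238 ± 778 CPM, n = 30), fipr-1 (949 ± 421 CPM) and abf-5 (405 ± 150 CPM). Cluster 2, unnamed and led by K10C2.7, led for abf-2 (829.1 ± 810.2 CPM, n = 31) and fipr-13 (671 ± 303 CPM) and held 50.0% of all abf-2 UMIs. Of the caenacins, cnc-10 led in cluster 12 (169 ± 77.4 CPM), which is headed by the neuropeptide-like genes nlp-20 and nlp-12, and cnc-4 in cluster 6 (222 ± 262 CPM, n = 20), which is headed by cuticle collagen genes such as dpy-4 and dpy-13. Of the UMIs of spp-13, 71.7% lay in cluster 6. The remaining leaders were ilys-4 in neuron-like nuclei (86.7 ± 84.1 CPM), spp-10, a relative of prosaposin, and spp-15 in body wall muscle-like nuclei (578 ± 130 and 627 ± 292 CPM), abf-1 in cluster 11 (27.9 ± 31.5 CPM) and fipr-29 in spermatheca-like nuclei (224 ± 131 CPM, n = 21). Neighbours in these orders often lay within their spread, as for abf-5, with 358 ± 124 CPM in pharyngeal muscle-like nuclei.

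**Figure D1:**
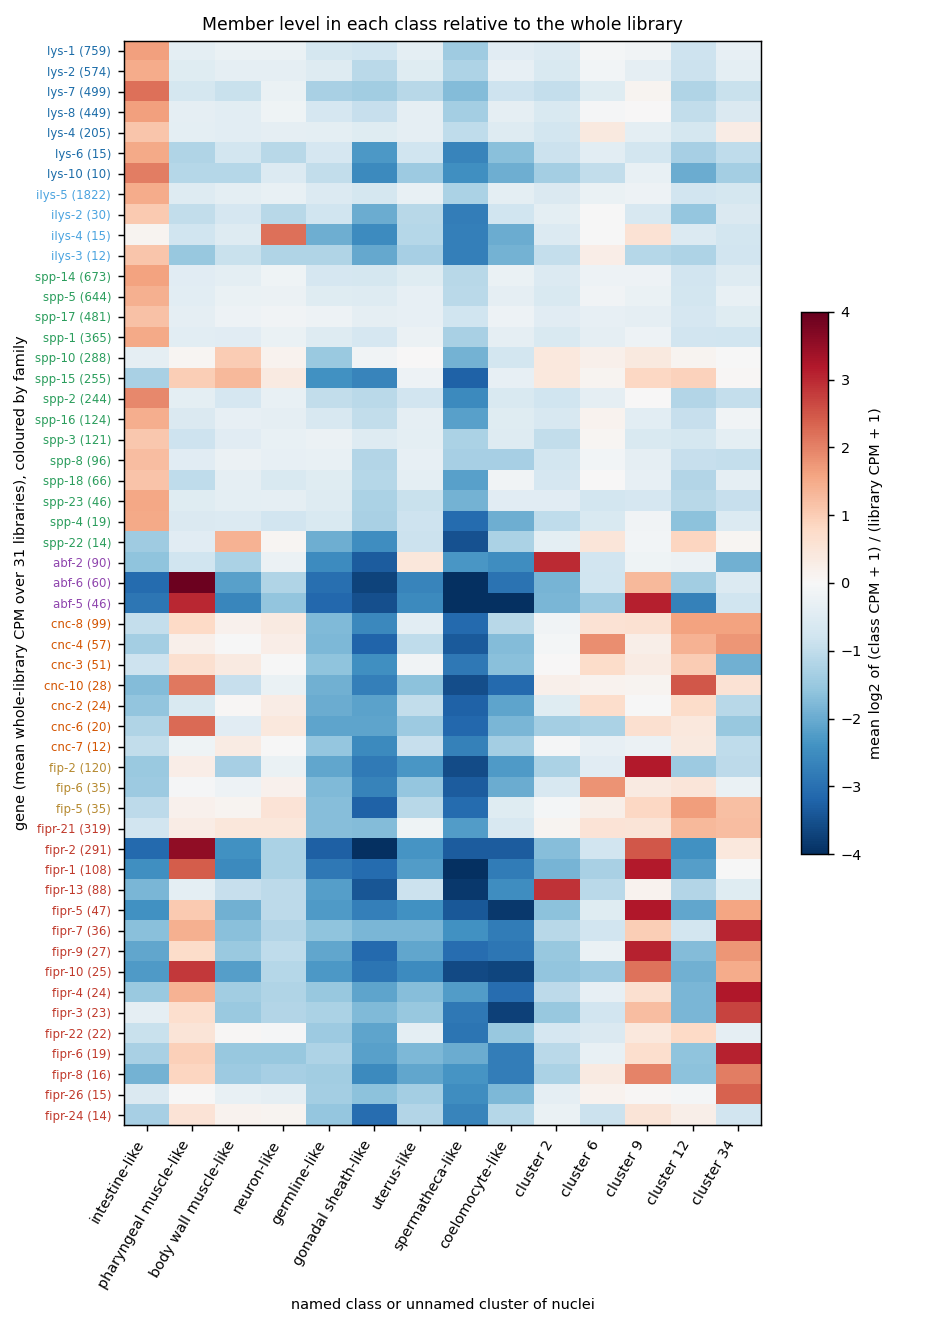
Mean log2 ratio of the CPM in a class to the CPM of the whole library, for the 53 genes of at least 10 CPM (rows, coloured by family) in named classes and 5 unnamed clusters (columns). The lys genes, the ilys genes other than ilys-4 and most spp genes have the intestine-like class as leading unit. Most abf, cnc, fip and fipr genes have the pharyngeal muscle-like class or cluster 2, 6, 9, 12 or 34, with cnc-7, fipr-22 and fipr-24 led by clusters not drawn.

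Genes of these families lie in groups along the chromosomes: 60 of the 92 fall in 21 groups of neighbours no more than 20000 bases apart. Neighbours did not always share a leading unit: of the 12 groups in which every gene had at least 100 UMIs, 3 had the same one throughout. On chromosome V (WBcel235) the group lys-1, lys-2 and lys-3, at 10277904 to 10283544, led in intestine-like nuclei, and so did the group lys-4, lys-5 and lys-6 on chromosome IV at 11621429 to 11627947. On chromosome X, abf-5 and abf-6, at 12792854 to 12794870, led in cluster 9 and in pharyngeal muscle-like nuclei. The 6 genes fipr-4 to fipr-9, on chromosome V at 10220981 to 10239961, led in clusters 34 and 9.

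In the fit of all 26 compared libraries no gene of these families was called by edgeR as changed with ethanol. In whole libraries, edgeR's quasi-likelihood test with Benjamini-Hochberg adjustment over all genes called 0 of the 65 tested genes in each of the 4 comparisons with water, against 0% of all 14505 genes tested, and DESeq2 also called 0. At an unadjusted p under 0.05 there were 1 of the 65 genes for 0.05% ethanol F1, 0 for 0.05% ethanol F3, 2 for 0.5% ethanol F1 and 3 for 0.5% ethanol F3. The median log2 change of the 65 genes was -0.19, -0.04, -0.27 and -0.29 in these comparisons, with -0.01, 0.01, -0.02 and -0.00 over all genes.

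Among the abundant lysozymes the doses could be followed within a batch. In batch 4, ilys-5 had 1777, 1603 and 1945 CPM in water F3 libraries, 1326, 1718 and 2165 CPM at 0.05% ethanol, and 2035, 1750 and 1944 CPM at 0.5% ethanol. The ranges overlapped. The fitted log2 change was 0.05 (SE 0.15) at 0.05% ethanol, fitted over batches 2 and 4 together, and 0.10 (SE 0.18) at 0.5% ethanol, from batch 4. In batch 5, lys-7 had 853, 302 and 409 CPM in water F1 libraries, 396, 225 and 482 CPM at 0.05% ethanol, and 402, 269 and 476 CPM at 0.5% ethanol. These too overlapped, with log2 changes of -0.26 (SE 0.24) at 0.05% ethanol, fitted over batches 2 and 5 together, and -0.38 (SE 0.29) at 0.5% ethanol, from batch 5. The pooled changes at 0.05% ethanol are therefore not those of the listed libraries alone.

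The smallest p of the 4 comparisons belonged to lys-3, a lysozyme gene of low level. It had 4.85, 2.16 and 0.84 CPM in 0.5% ethanol F3 libraries, against 1.32, 0.62 and 0.88 CPM in water F3 libraries of the same batch. The groups overlapped. The fitted log2 change was 1.44 (SE 0.48), which edgeR did not call at an adjusted p of 0.957. The other leading values were -1.84 (SE 0.85) for fipr-6 at 0.05% ethanol F1, 0.33 (SE 0.21) for lys-5 at 0.05% ethanol F3 and -2.63 (SE 1.21) for fipr-11 at 0.5% ethanol F1, none past the threshold.

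For fipr-1 the call depended on the libraries in the fit. It had 83.3, 77.5 and 87.7 CPM in 0.5% ethanol F3 libraries, against 168, 186 and 147 CPM in water F3 libraries of batch 4. The groups did not overlap, yet the log2 change of -1.02 (SE 0.56) was not called with edgeR in the fit of all 26 libraries, in which every group shares 1 estimate of the spread. Fitted on those 6 libraries alone, edgeR gave -1.05 (SE 0.11) and called it, at an adjusted p of 0.0258. How many of all genes that fit called is not given here. The 0.05% ethanol F3 libraries of the same batch had 70.8, 235.4 and 124 CPM.

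Direct comparison of the doses gave no call either. Between 0.5% and 0.05% ethanol, edgeR called 0 of 68 genes in F1 and in F3, against 0% of all 15105 genes. At an unadjusted p under 0.05 there were 0 and 1 of the 68, against 158 and 686 of all genes. DESeq2 called 0 in both. The smallest p was that of ilys-2 in F1 (log2 change 0.76, SE 0.49) and of fipr-2 in F3 (log2 change -1.14, SE 0.51). The effect of ethanol did not differ detectably between F3 and F1: edgeR called 0 of 65 genes at either dose (0% of all genes, DESeq2 0), with 1 gene each at an unadjusted p under 0.05, fipr-6 at 0.05% and lys-3 at 0.5%. Of all 14505 genes 137 and 149 had such a p. For 0.5% ethanol the generation coincides with the batch, and the pair cannot be told apart.

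**Figure D2:**
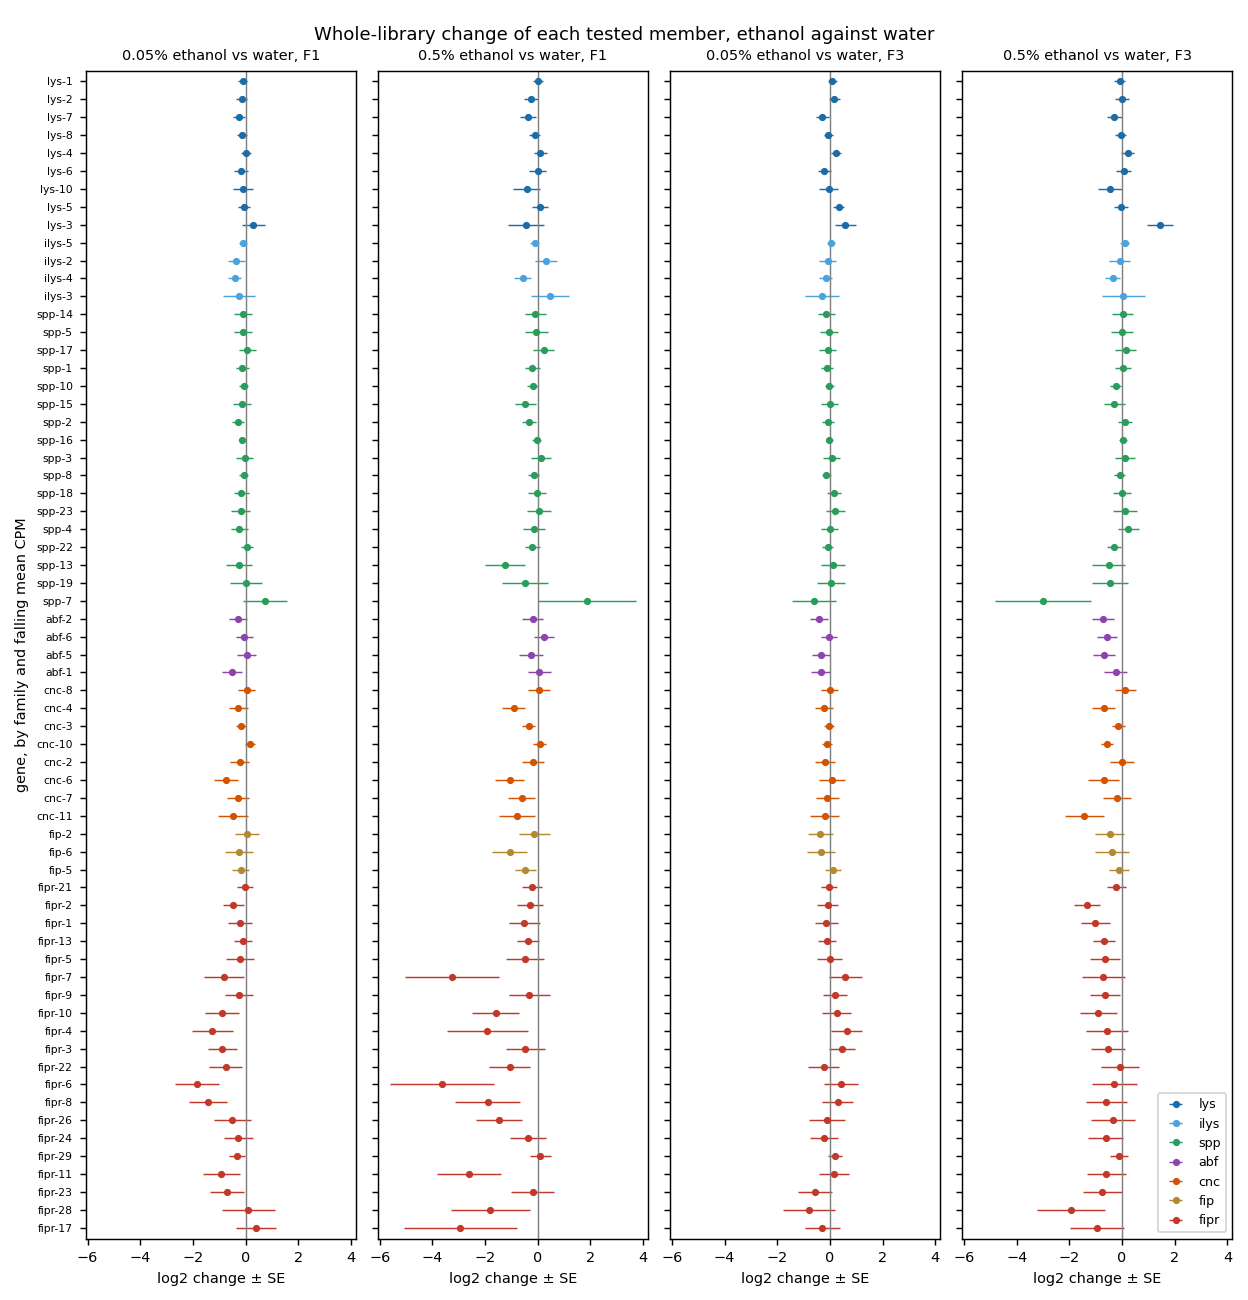
Log2 change and SE (points and bars, edgeR) of each of the 65 tested genes in the 4 comparisons of ethanol with water, by family and falling mean level. Abundant lys, ilys and spp genes lie close to 0 with short bars, and the widest bars belong to low fipr genes and spp-7.

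How large an effect could have been missed can be read from the errors. Of the 53 genes with at least 10 CPM, 35 at 0.05% ethanol F1, 36 at 0.05% ethanol F3, 23 at 0.5% ethanol F1 and 26 at 0.5% ethanol F3 had a change with 2 SE on each side inside a log2 change of 1 in size. For the rest, changes of that size lay within the error. The median SE of the log2 change was 0.348, 0.345, 0.426 and 0.425. These errors come from the fit that does not pair same-numbered libraries.

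Sums over the nuclei of each named class were tested in the same way. Of 281 pairs of a member gene and a named class at 0.05% ethanol F1, 296 at 0.05% ethanol F3, 296 at 0.5% ethanol F1 and 320 at 0.5% ethanol F3, edgeR called 0, against 0% of all gene and class pairs. At an unadjusted p under 0.05 there were 11, 27, 26 and 22 pairs. The share of all pairs at that threshold is not given here, so these counts are not read as an excess. The smallest p values were those of cnc-4 in uterus-like nuclei at 0.05% ethanol F1 (log2 change -1.98, SE 0.69), fipr-6 in pharyngeal muscle-like nuclei at 0.05% ethanol F3 (2.49, SE 0.64), ilys-2 in intestine-like nuclei at 0.5% ethanol F1 (1.53, SE 0.42) and fipr-13 in body wall muscle-like nuclei at 0.5% ethanol F3 (-1.68, SE 0.39).

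Of 41 genes of immune signalling and its transcription factors, all tested, edgeR also called 0 in each comparison with water. They cover the p38 MAP kinase module, TGF-beta signalling, receptors, kinases and transcription factors. An unadjusted p under 0.05 was seen for daf-16 at 0.5% ethanol F1 (log2 change 0.37, SE 0.17) and for tir-1, the TIR-domain adaptor upstream of the p38 module, at 0.5% ethanol F3 (-0.49, SE 0.23). Of all 14505 genes 274 and 657 had such a p in these comparisons.

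Generations could be compared within batch 2, which holds both. There abf-2 and cnc-3 fell in F3. The gene abf-2 had 15.5 and 23.4 CPM in 0.05% ethanol F3 and 26.4 and 34.4 CPM in water F3 libraries, against 80.5 and 72.3 CPM in 0.05% ethanol F1 and 89.3 and 60.8 CPM in water F1 libraries. Every F3 library lay below every F1 library, and the fitted log2 change was -1.55 ± 0.40 (SE), at an adjusted p of 0.0468 with edgeR. The caenacin gene cnc-3 had 23.9 and 31.8 CPM in 0.05% ethanol F3 and 26.1 and 24.4 CPM in water F3 libraries, against 40.7 and 58.9 CPM in 0.05% ethanol F1 and 44.9 and 67.9 CPM in water F1 libraries. Here too the generations did not overlap, and the fitted log2 change was -0.91 ± 0.23 (SE), at an adjusted p of 0.0468 with edgeR. These were 2 of 68 genes, both lower and none higher, against 2% of 15105 genes called, 1.58% lower and 0.417% higher. The call of cnc-3 was lost when any 1 of the 8 libraries was left out, and that of abf-2 when any 1 of 7 was. The count was 0 in those 7 cases and 5, with abf-2 but not cnc-3 among them, without water F1 replicate 2. It was 2 without the nuclei of shared barcodes and 1 without doublets.

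The next smallest p was that of fipr-7, which edgeR did not call (log2 change 2.21, adjusted p = 0.105). It had 114.8 and 475 CPM in 0.05% ethanol F3 and 179 and 75.6 CPM in water F3 libraries, against 15.7 and 50.0 CPM in 0.05% ethanol F1 and 20.6 and 103 CPM in water F1 libraries. The generations overlapped.

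In class sums, a comparison added after the whole-library calls were seen, edgeR called 5 pairs for F3 against F1 in batch 2, against 0.43% of all gene and class pairs. They were cnc-3 (log2 change -1.67, SE 0.32) and fipr-2 (1.52, SE 0.34) in body wall muscle-like nuclei, and fipr-7 (2.21, SE 0.47), fipr-21 (1.17, SE 0.26) and fipr-1 (1.77, SE 0.41) in pharyngeal muscle-like nuclei. The first class had 49 genes tested, with 0.68% of all genes called there, and the second 50, with 0.58%. All fipr genes together averaged 639 CPM in the first and 5335 CPM in the second. Background from free RNA may enter the fipr-2 level in body wall muscle-like nuclei, which was not tested. With unnamed clusters included, abf-2 was lower in cluster 2, its leading cluster, at -1.87 (SE 0.40).

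The largest differences in these genes ran between batches. Water and 0.05% ethanol libraries were made in batch 5 and batch 2 for F1, and in batch 4 and batch 2 for F3, and each pair of batches was compared over both treatments. In batch 5 against batch 2, edgeR called 35 of 68 genes, 34 lower and 1 higher, where 45.1% of all genes were called, 22.9% lower and 22.2% higher. Their median log2 change was -0.93, against -0.04 over all genes. In batch 4 against batch 2, 26 of 68 genes were called, 24 lower and 2 higher, where 17.2% of all genes were called, 10.1% lower and 7.06% higher. Their median log2 change was -0.55, against -0.02 over all genes. Without the nuclei of shared barcodes the counts were 36 (35 lower) and 21 (20 lower), and without the 3 shallowest libraries batch 5 gave 32 (30 lower and 2 higher).

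These 2 comparisons share no library, but both set batch 2 as the reference in the same fit. What is particular to batch 2 enters both, so they are not independent. Lower in both were 22 genes, 64.7% of the 34 lower in batch 5 and 91.7% of the 24 lower in batch 4, and cnc-6 was higher in both. Over all genes 1180 were lower in both, 34.1% of the 3463 lower in batch 5 and 77.2% of the 1528 lower in batch 4. The 22 were lys-1, lys-2, lys-3, lys-4, lys-10, ilys-2, spp-7, spp-13, spp-16, abf-4, cnc-8, fipr-3 to fipr-11, fipr-17 and fipr-29. Among these, spp-7, abf-4 and fipr-17 had 2 to 61, 1 to 36 and 5 to 47 UMIs in batch 2 libraries. In libraries of batches 4 and 5 they had 0 to 3, 0 to 3 and 0 to 8 UMIs. Such genes could pass the filter through batch 2 alone, so their lower calls are no support for the overlap.

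Of the lysozyme genes, 7 of 9 lys genes were lower in batch 5 and 5 of 9 in batch 4. The gene lys-1 had 356, 463 and 574 CPM (lowest, median and highest of 6 libraries) in batch 5 F1, against 847, 1212 and 1392 CPM (of 4) in batch 2 F1, with a log2 change of -1.45 (SE 0.17). In batch 4 F3 it had 573, 603 and 854 CPM, against 880, 1335 and 1491 CPM in batch 2 F3, with a log2 change of -0.96 (SE 0.17). The batches did not overlap in either generation. The same held for lys-4, at 80.0 to 160 CPM in batch 5 F1 against 278 to 388 CPM in batch 2 F1, and at 119 to 211 CPM in batch 4 F3 against 367 to 461 CPM in batch 2 F3. Its log2 changes were -1.79 (SE 0.20) and -1.33 (SE 0.20). Of the other 2 abundant lys genes neither was called: lys-7 changed by -0.41 (SE 0.24) and 0.14 (SE 0.25) on the log2 scale, and lys-8 by -0.41 (SE 0.18) and 0.29 (SE 0.19).

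Among the invertebrate-type lysozymes ilys-2 was lower, at 4.86 to 25.8 CPM in batch 5 F1 against 41.4 to 83.9 CPM in batch 2 F1, and at 10.9 to 25.1 CPM in batch 4 F3 against 57.5 to 79.0 CPM in batch 2 F3. The more abundant ilys-5 was not called, with log2 changes of -0.10 (SE 0.16) and -0.24 (SE 0.16). Of 18 spp genes 8 were lower in batch 5 and 3 in batch 4. The smallest p belonged to spp-16, at 70.2 to 103 CPM in batch 5 F1 against 148 to 247 CPM in batch 2 F1, with a log2 change of -1.45 (SE 0.13), and at 70.8 to 94.9 CPM in batch 4 F3 against 218 to 259 CPM in batch 2 F3, with -1.42 (SE 0.13). The gene spp-13 fell further, with log2 changes of -3.57 (SE 0.51) and -2.71 (SE 0.47), and spp-1 was not called (0.17, SE 0.26, and 0.21, SE 0.26).

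Of 24 fip and fipr genes 13 were lower in batch 5 and 12 in batch 4, among them fipr-7 (-4.45, SE 0.78, and -4.46, SE 0.65), fipr-4 (-4.88, SE 0.82, and -4.07, SE 0.64) and fipr-6 (-4.79, SE 0.91, and -3.75, SE 0.68). The gene fipr-29, which led in spermatheca-like nuclei, changed by -2.34 (SE 0.31) and -1.88 (SE 0.29). Of 5 abf genes 3 were lower in batch 5 and 1 in batch 4. The caenacin gene cnc-6 went the other way, with 9.38 to 120 CPM in batch 5 F1 against 4.57 to 7.74 CPM in batch 2 F1, and 7.87 to 18.8 CPM in batch 4 F3 against 1.47 to 2.55 CPM in batch 2 F3. Its log2 changes were 2.38 (SE 0.53) and 2.29 (SE 0.57), and cnc-3 was higher in batch 4 F3 (0.64, SE 0.22, adjusted p = 0.046 with edgeR), a call kept by DESeq2 but lost in edgeR with RLE size factors and when any 1 of 9 of the 10 libraries was left out.

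**Figure D3:**
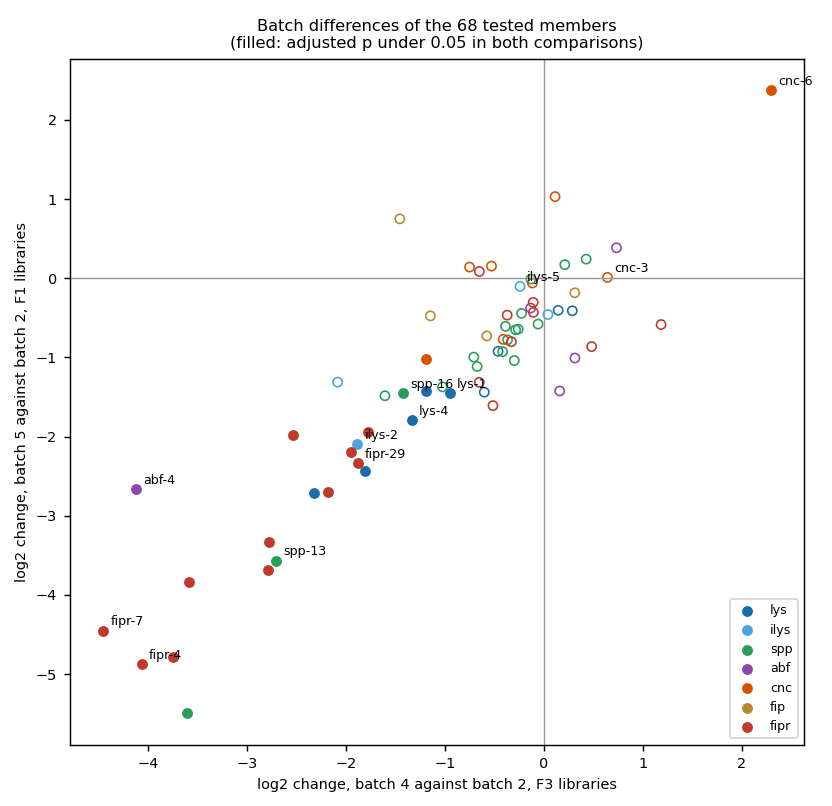
Log2 change of each of the 68 tested genes between batch 5 and batch 2 in F1 (vertical) and between batch 4 and batch 2 in F3 (horizontal), coloured by family, filled where both had an adjusted p under 0.05. The 22 genes lower in both lie at the lower left, cnc-6 alone at the upper right, and ilys-5 near the origin.

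The neighbouring genes fipr-4 to fipr-9 varied within groups as well as between batches. All 6 were highest in batch 2 F3, 5 of them in 0.05% ethanol F3 replicate 2 and 1 in water F3 replicate 1. For fipr-7 that library had 475 CPM, against 114.8 CPM in the other 0.05% ethanol F3 library of batch 2, and the 6 libraries of batch 4 F3 ran from 0.91 to 19.1 CPM. In batch 5 F1 fipr-7 ran from 0 to 5.71 CPM, against 15.7 to 103 CPM in batch 2 F1. In the 5 untreated P0 libraries it reached at most 4.69 CPM.

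**Figure D4:**
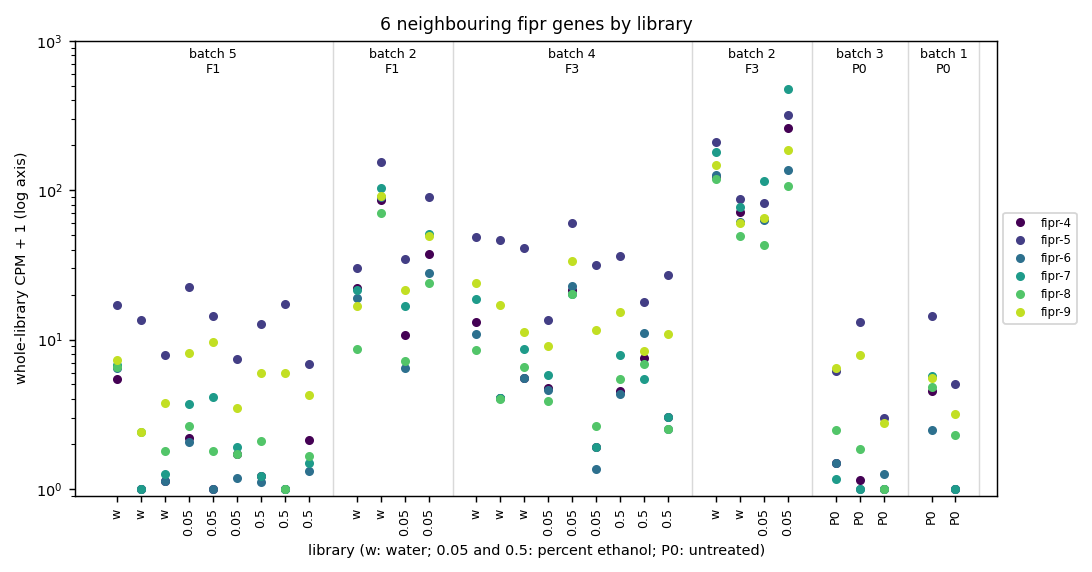
Whole-library CPM plus 1 (log axis) of the 6 neighbouring genes fipr-4 to fipr-9 in each of the 31 libraries, by batch, generation and treatment. The highest library of each gene is a batch 2 F3 library, while batch 4 0.05% ethanol F3 replicate 2, with 19.1 CPM of fipr-7, lies above batch 2 0.05% ethanol F1 replicate 1, with 15.7 CPM.

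Composition of the libraries moved with the batch. Cluster 34, in which fipr-4, fipr-6, fipr-7 and fipr-8 led, held a median of 0.18% of nuclei in batch 5 F1, against 1.82% in batch 2 F1, and 0.79% in batch 4 F3, against 2.97% in batch 2 F3. Cluster 6, with most spp-13 UMIs, held 0.38% against 9.83% and 2.53% against 13.2% in the same pairs. The summed level of 17 epidermis markers was 1520 CPM in batch 5 F1 against 4591 CPM in batch 2 F1, and 4120 against 5500 CPM in batch 4 F3 and batch 2 F3. That of 7 pharyngeal muscle markers was 266 against 761 CPM and 1015 against 1023 CPM. Median UMIs per nucleus were 1017 against 1325 and 1276 against 1700. Their part in the lower fipr and spp-13 levels was not tested.

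The summed intestine markers went the other way. The summed level of 13 intestine markers was 36406 CPM in batch 5 F1 against 32077 CPM in batch 2 F1, and 38005 CPM in batch 4 F3 against 26639 CPM in batch 2 F3 (medians). Such a sum follows its most abundant genes. The marker elt-2 had medians of 7.17 against 14.5 CPM and 13.3 against 14.3 CPM in the same pairs, and the other markers are not printed singly. Intestine-like nuclei made up 8.98% against 7.23% and 9.27% against 7.09%. In sums over intestine-like nuclei alone, 16 of 47 genes were lower in batch 5 F1 and none higher, where 7.87% of all genes tested there were lower. In batch 4 F3 13 were lower and 1, spp-8, higher, where 4.08% of all genes were lower. Over all named classes 79 of 295 member and class pairs were called between batch 5 and batch 2, 77 of them lower, where 9.5% of all pairs were called, and 74 of 310 between batch 4 and batch 2, 70 of them lower, where 5.19% were called. A gene can be counted in several classes, and background from free RNA may be shared among them, so the pairs are not independent. Class sums between batches were also added after the whole-library calls were seen.

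In intestine-like nuclei lys-1 had 1251, 1540 and 1731 CPM (lowest, median and highest of 6) in batch 5 F1, against 2610, 3669 and 4464 CPM (of 4) in batch 2 F1, a log2 change of -1.32 (SE 0.18). It had 1661, 1894 and 2242 CPM in batch 4 F3, against 2816, 3589 and 4061 CPM in batch 2 F3, a log2 change of -0.90 (SE 0.18). The batches did not overlap in either generation, and the same was true of lys-2, at 692 to 1501 CPM in batch 5 F1 against 1960 to 3007 CPM in batch 2 F1, and 710 to 1185 CPM in batch 4 F3 against 1941 to 2454 CPM in batch 2 F3. Also lower in both generations were lys-4 (-1.24, SE 0.26, and -1.26, SE 0.25), lys-10 (-2.27, SE 0.36, and -1.75, SE 0.32), ilys-2 (-1.78, SE 0.34, and -1.74, SE 0.32) and spp-16 (-1.21, SE 0.17, and -1.28, SE 0.16). In the same nuclei ilys-5 had medians of 4890 CPM in batch 5 F1 against 4803 CPM in batch 2 F1, and 4667 CPM in batch 4 F3 against 5411 CPM in batch 2 F3. For spp-1 they were 1211 against 771 CPM and 795 against 727 CPM.

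**Figure D5:**
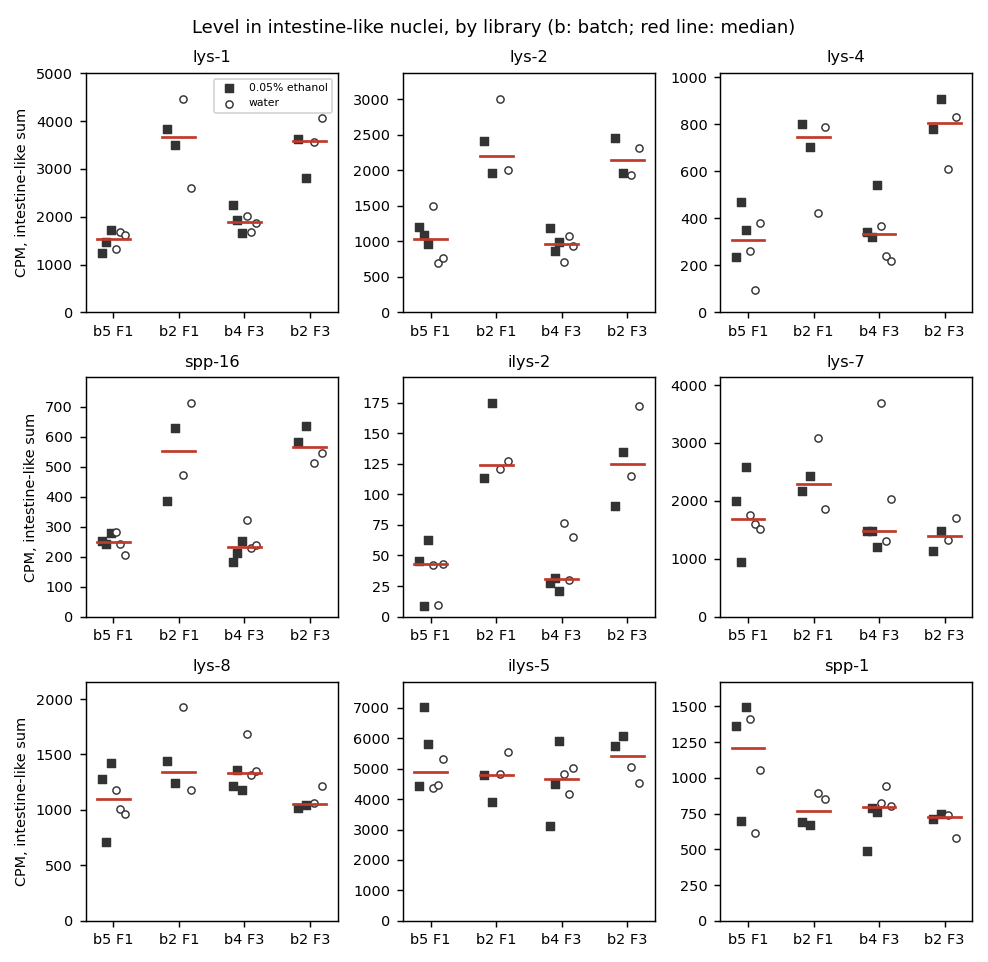
CPM in the sum of intestine-like nuclei, 1 point per library (squares 0.05% ethanol, circles water, red line the median), by batch (b) and generation, for 9 genes. For lys-1, lys-2 and ilys-2 every library of batches 5 and 4 lies below every batch 2 library of the same generation, while lys-7, lys-8, ilys-5 and spp-1 overlap.

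Lower levels of the gut genes were also measured outside the gut. In germline-like nuclei lys-1 had a median of 296 CPM in batch 5 F1 against 715 CPM in batch 2 F1, and 482 CPM in batch 4 F3 against 905 CPM in batch 2 F3. The batch 5 difference was called (log2 change -1.57, SE 0.27), with 20 of 51 genes lower in germline-like nuclei, where 8.35% of all genes tested there were lower. In batch 4 F3 9 of 51 were lower, where 3.82% of all genes were. The lys-1 and ilys-5 levels in germline-like nuclei may hold background from free RNA, which was not tested. These counts are therefore not read as a separate measure of expression there. In pharyngeal muscle-like nuclei fipr-2, which leads there, was lower by a log2 change of -1.39 (SE 0.28) in batch 5 F1 and -1.08 (SE 0.27) in batch 4 F3. Of abf-6, which also leads there, the change was -1.07 (SE 0.26) in batch 5 F1. Its medians were 804 CPM in batch 4 F3 and 714 CPM in batch 2 F3. The genes that lead there did not all fall. In whole libraries 3 of the 6 were lower and 1 higher in batch 5 F1. In batch 4 F3 1 was lower and 1 higher. In pharyngeal muscle-like nuclei fipr-7 changed by -2.98 (SE 0.63) and -4.24 (SE 0.46). In all, 12 of 50 genes were lower in those nuclei in batch 5 F1, where 4.50% of all genes were. In batch 4 F3 17 were lower and 1, cnc-6, higher, where 3.53% of all genes were lower.

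Of the 41 signalling genes, 13 were higher and 3 lower in batch 5 F1, and 6 higher and none lower in batch 4 F3, with edgeR at an adjusted p under 0.05. Over all genes 22.2% were higher and 22.9% lower in batch 5 F1, and 7.06% higher and 10.1% lower in batch 4 F3. The Toll receptor gene tol-1 rose in both (log2 changes 1.09, SE 0.12, and 0.49, SE 0.12), as did atf-7, the transcription factor downstream of p38 (0.55, SE 0.09, and 0.39, SE 0.09), and mpk-1, nipi-3 and cebp-1. The intestinal GATA factor gene elt-2 was lower in batch 5 F1 (-0.83, SE 0.27), together with gpa-12 and kgb-1, and daf-16 and skn-1 were higher there (0.70, SE 0.15, and 0.71, SE 0.12). Between generations in batch 2, edgeR called 0 of the 41, with 1 at an unadjusted p under 0.05, against 2122 of all 15105 genes.

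No batch held both untreated P0 worms and water or ethanol lines, so their levels stand beside each other without a comparison. In the sorted P0 library spp-5 had 1909 CPM, spp-14 1695 CPM and lys-7 1169 CPM, and in the 4 unsorted P0 libraries they ran from 792 to 1286, from 1023 to 1582 and from 564 to 1479 CPM. The gene abf-2 had 118 CPM in the sorted library and 131 to 346 CPM in the unsorted ones. For ilys-5 all 5 libraries lay between 1344 and 2386 CPM.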

How the data were processed

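The deposited files hold UMI counts per gene and nucleus. The authors made these counts with Cell Ranger on build ce10, per the submitters' processing notes, with matrix software version 3.0.2 per the file headers. Strand use is not given in the sources used here. Of 46904 identifiers, 46817 (99.81%) were matched to WBcel235 (Ensembl release 115). No column of values was left out.

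Counts were summed per library, and per class in libraries with at least 20 nuclei of it. They were tested with edgeR 4.0.16 (quasi-likelihood, TMM scaling, filterByExpr, R 4.3.3) with Benjamini-Hochberg adjustment over all genes, called at an adjusted p under 0.05. Ethanol comparisons used an intercept per batch and generation (14505 genes, 65 of the 92), and the others a mean per batch, generation and treatment (15105 genes, 68 of the 92). The other 24 were not tested. SE is the absolute log2 change divided by the root of F. DESeq2 1.42.0 was an alternative, and the fits were tested on simulated data.

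Nuclei were clustered (30 components, 15 neighbours, leidenalg 0.10.2, resolution 2). Of 85180 nuclei, 2168 scored as doublets at 0.8% per 1000 nuclei were left out of the clusters only. The resolution and the naming thresholds were set after the clusters were seen.

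Same-numbered libraries were taken as pairs where every pair's deviations correlated above 0.1, from the data and not from a stated pairing. This held for 0.05% ethanol F1 (5 pairs, 0.28 to 0.58), 0.5% ethanol F1 (3, 0.40 to 0.42) and 0.5% ethanol F3 (3, 0.14 to 0.37), and between the doses in F1 (3, 0.34 to 0.40) and F3 (3, 0.16 to 0.30). The printed changes, SE and p-values come from fits without these pairs, which entered only the alternative with a replicate block. For F3 against F1 in batch 2, groups of 2 libraries gave 4 correlations of only 2 distinct values (0.12 and 0.30), too few to take the numbers as pairs. The members and gene lists were chosen with earlier results of these data known. By the naming rule, values are given for the 4 highest genes of each family, the highest in each named class, and the called genes of a comparison (where over 10, the 5 of smallest p in each direction; where none, the gene of smallest p). Not every gene the rule covers is printed, and others, such as fipr-1 at 0.5% ethanol F3, the genes not called between batches and those compared among intestine-like clusters, were chosen after their values were seen.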

Additional observations from a re-analysis of the deposited data

Results flagged for a closer look

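Of 175 groups of libraries examined over the named genes, 17 held 1 library far from the others. Chance alone flags about 1 in 20 in uniform groups. That rate is no measure here, since most groups pool batches and some genes were named for their batch differences. Most of the 17 were libraries of batch 2, in a group that also holds batch 4 or 5, for the genes that differed between batches.

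For fipr-4 these were 36.4 CPM in 0.05% ethanol F1 batch 2 replicate 2, with the others between 0 and 9.78 CPM, 260.7 CPM in 0.05% ethanol F3 batch 2 replicate 2, with the others between 0.91 and 63.0 CPM, and 85.1 CPM in water F1 batch 2 replicate 2, with the others up to 20.96 CPM. For fipr-7 they were 475 CPM in that 0.05% ethanol F3 library, with the others up to 114.8 CPM, and 103 CPM in that water F1 library, with the others up to 20.6 CPM. The same 0.05% ethanol F1 library had 26.8 CPM of fipr-6, 35.5 CPM of spp-13 and 45.5 CPM of cnc-10, with the others at most at 5.46, 11.1 and 26.6 CPM. The same water F1 library had 88.9 CPM of fipr-6 and 32.9 CPM of spp-13, with the others at most at 18.1 and 8.85 CPM. The same 0.05% ethanol F3 library had 259.5 CPM of cnc-8, with the others at most at 100.3 CPM. Water F3 batch 2 replicate 1 had 57.4 CPM of fipr-11 and 643.9 CPM of fipr-21, with the others at most at 13.2 and 468.5 CPM.

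Outside batch 2, water F1 batch 5 replicate 1 had 253.7 CPM of abf-2 and 119.7 CPM of cnc-6, with the others at most at 89.3 and 20.8 CPM. For ilys-4, 0.05% ethanol F3 batch 4 replicate 3 had 17.5 CPM, with the others between 14.09 and 15.02 CPM. For abf-1, unsorted untreated P0 batch 3 replicate 3 had 33.1 CPM, with the others between 6.59 and 10.0 CPM.

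Untreated P0 libraries enter no comparison. Of the 35 genes examined, 13 had a P0 library above every water library, and 4 of these by more than 2 times. Some genes would have their highest library among the P0 libraries even with no difference between the groups. The share of all genes with such a library is not given here, so the 13 and the 4 are not read as an excess. The sorted P0 library had 1695 CPM of spp-14, 1909 CPM of spp-5 and 1386 CPM of spp-17, against at most 829.8, 796.9 and 684.5 CPM in water libraries. The abf-1 level of 33.1 CPM compares with at most 4.17 CPM in water libraries. Cluster 11, in which abf-1 led, drew 24.1% of its nuclei from 1 library, which is not named here. The part of this in the abf-1 level was not tested. The P0 libraries are of other batches, and batch and treatment cannot be told apart here.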

How the results depend on the processing

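The ethanol counts of 0 in whole libraries were 0 under every alternative run (RLE size factors, DESeq2, no filter, doublets left out, replicate block, shared barcodes left out, 3 shallowest libraries left out, each library left out in turn, 0 to 0), except that a fit of the compared libraries alone gave 1 for 0.5% ethanol F3. The F3 against F1 count within batch 2 was 7 with no filter, 1 with doublets left out and 19 with the replicate block (12 higher, 11 of them fipr genes, and 7 lower, where 8.55% of all genes were called under that block, 4.01% higher and 4.54% lower), and ran from 0 to 5 with 1 library left out. The numbers there were not taken as pairs, with 2 distinct correlations (0.12 and 0.30). The block changed no other whole-library call, and could not be fitted between batches, since the numbers lie within batches. In class sums without a filter, 13 pairs were called for 0.05% ethanol F3, 8 for 0.5% ethanol F1 and 3 for 0.5% ethanol F3, and 2 with the replicate block for 0.05% ethanol F3, whose same-numbered libraries did not pair (2 of 5 correlations above 0.1, 0.029 to 0.16). With unnamed clusters, 177 and 156 pairs were called in batch 5 and batch 4 against batch 2. The whole-library batch counts ran from 28 to 40 and from 19 to 26 with 1 library left out. Apart from the replicate block within batch 2, the share of all genes or pairs called under these settings is not given. The calls they added are therefore not read as particular to these genes. No change turned its direction, and the cause of these moves was not tested. Genes of low count, fipr-6 and spp-7 among them, have errors too wide to exclude large changes.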
